A study of Drosophila melanogaster with 2 samples.

Results

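The muscle attachment and tendon genes are 10 Drosophila melanogaster genes chosen by name: sr, how, Lrt, Tsp, LanA, LanB1, if, mew, mys and kon. They are 10 of the 13945 protein-coding genes annotated on the 6 chromosome arms used. Occupancy of their chromatin by abrupt (ab), a transcription factor with zinc fingers and a BTB domain that is known for its part in neuromuscular connections and dendrite shape, was read from chromatin immunoprecipitation and sequencing (ChIP-seq). The study had a single group, whole embryos of mixed sex between 0 and 24 hours of age, from a transgenic line whose ab carries eGFP at its C-terminus, precipitated with an anti-GFP antibody, in 2 biological replicates. A 24-hour collection of whole embryos mixes all stages and tissues, so tendon and muscle cells were not measured apart from the rest, and no embryos without the tagged protein are compared here. The control entered only through the authors' scoring of each region.

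Body wall muscles of the fly embryo end on specialised epidermal cells, the tendon cells. A tendon cell is set up by the transcription factor Stripe (sr), whose RNA is controlled by the RNA-binding protein Held out wings (how). Muscle and tendon then hold on to each other through integrins, pairs of one α and one β subunit that bind secreted matrix proteins such as thrombospondin and laminins. The β subunit βPS is the product of mys, αPS1 on the tendon side that of mew, and αPS2 on the muscle side that of if.

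The measured unit was a region: a stretch of genome scored by the authors against a control, with a summit and a signal whose scale is not given in the sources used here. On the dm6 build each replicate had 30000 regions, the pool of both had 21376 (called pooled regions here), and the 1664 strongest of these made up the authors' reproducible list (called reproducible peaks here). A region was counted for a gene when its summit lay in the gene body or within 1000 bp of it, a stretch called the territory. Read depth was unknown. The weakest reproducible peak had a signal of 51.8, the median one 75.1 and the strongest 1006.7.

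The stretches around the strongest reproducible summit of sr, mew, mys and if, and around the strongest region of LanB1, are shown because the first 4 are the strongest peak of each gene with a reproducible one, and the last holds a promoter element, TATCGATA, 2 times. That last region is not a reproducible peak. It lies past the 3′ end of LanB1, with its summit 85 bp from the start of CG7115. Each stretch runs 5′ to 3′ on the strand of the named gene, at most 100 bp to either side of the summit, cut short where an annotated UTR begins, and was read from RefSeq Release 6. Capitals mark GAGAG, TATCGATA or GGTCACAC on either strand.
sr (chr3R:18125143-18125343, plus strand): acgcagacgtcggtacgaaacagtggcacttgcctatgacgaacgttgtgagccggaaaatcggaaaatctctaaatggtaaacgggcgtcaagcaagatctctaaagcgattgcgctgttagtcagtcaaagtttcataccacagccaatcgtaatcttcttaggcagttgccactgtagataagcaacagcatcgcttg
mew (chrX:13251387-13251587, minus strand): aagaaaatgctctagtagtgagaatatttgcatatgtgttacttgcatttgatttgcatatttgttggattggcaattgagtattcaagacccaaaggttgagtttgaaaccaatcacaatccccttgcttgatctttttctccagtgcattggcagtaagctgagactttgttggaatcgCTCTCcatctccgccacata
mys (chrX:8061538-8061644, plus strand): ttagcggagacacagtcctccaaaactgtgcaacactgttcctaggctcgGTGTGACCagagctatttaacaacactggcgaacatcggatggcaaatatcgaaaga
if (chrX:16751911-16752087, minus strand): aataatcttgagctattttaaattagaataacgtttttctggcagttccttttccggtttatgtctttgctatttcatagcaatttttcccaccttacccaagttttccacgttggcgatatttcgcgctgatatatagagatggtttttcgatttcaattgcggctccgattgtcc
LanB1 (chr2L:7821350-7821534, plus strand): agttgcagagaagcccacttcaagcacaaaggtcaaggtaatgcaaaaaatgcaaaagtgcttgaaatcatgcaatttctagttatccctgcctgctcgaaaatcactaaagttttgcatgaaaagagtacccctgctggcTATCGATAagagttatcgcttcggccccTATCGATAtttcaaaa

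Reproducible peaks were found in the territories of sr and of all 3 integrin genes of the set, and in none of the other 6. The if peak lay beyond the 3′ end of that gene, 77 bp from the start of goe. The mys peak lay in a promoter shared with fs(1)h. In all, 4 of the 10 genes (sr, mew, mys and if) had at least 1 reproducible peak, 6 peaks together, against 13.2% of all protein-coding genes. The territories of the set are long, between 10.6 and 46.8 kb, and of the 1810 protein-coding genes with territories in that range 24.4% had a reproducible peak. With 10 genes chosen with earlier results known, no test was made of this difference. Every gene of the set had at least 1 pooled region, as did 63.4% of all protein-coding genes and 91.6% of those in the same range of length, so the presence of a weak region says little about these genes.

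**Figure D1:**
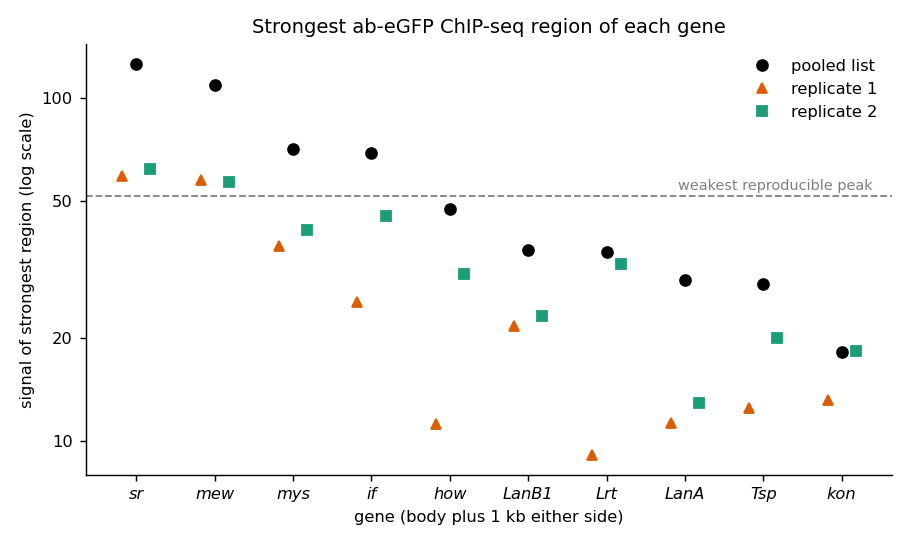
Signal of the strongest region in the territory of each gene (log axis), in the pooled list (circles), replicate 1 (triangles) and replicate 2 (squares). The genes sr, mew, mys and if stand above the weakest reproducible peak at 51.8, and how is next with 47.6.

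The strongest peak of the set belonged to sr, which encodes the Egr-type zinc-finger factor of tendon cells. It lay on 3R from 18124988 to 18125497, with a pooled signal of 126.0, against 59.1 in replicate 1 alone and 62.1 in replicate 2 alone. The replicates differed here by -0.07 on the log2 scale (replicate 1 over replicate 2), against a median of -0.05 and an SD of 0.88 over the 1590 reproducible peaks with a summit in both. The summit sits in an intron, 3182 bp after the downstream of the 2 annotated transcription start sites (TSSs) of sr and 34440 bp after the upstream one, and sr is also its nearest gene. Only 2.64% of protein-coding genes had a stronger pooled region in their territory. That share is not matched for length: the sr territory is 46.8 kb long, against a median of 4.17 kb over all protein-coding genes.

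Outside this peak the sr territory held few pooled regions for its length. The gene spans 18090803 to 18135583 on the plus strand of 3R and held 4 pooled regions, or 0.855 per 10 kb, the lowest density of the 10 genes. The other 3 regions had pooled signals of 27.1, 23.1 and 18.3 and lay within 3 kb of the upstream TSS, at 2389 and 2632 bp after it and 503 bp before it. The 27.1 region had 15 in replicate 1 and 9.14 in replicate 2, and the 18.3 region, upstream of that TSS, had 14.7 in replicate 1 and no summit within 200 bp in replicate 2. The replicate lists held more weak regions: 12 in replicate 1 (2.57 per 10 kb), of which 7 had no pooled match, and 7 in replicate 2 (1.5 per 10 kb), of which 5 had none. Below the strong peak the highest were 15 in replicate 1 and 12 in replicate 2.

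The RNA-binding regulator how showed the reverse of the sr layout, many weak regions and no reproducible peak. This was not particular to how: Lrt (4.19 pooled regions per 10 kb) and Tsp (4.12) had no reproducible peak either. The median of the set was 3.5. The territory of how (3R, gene from 22042191 to 22079321, plus strand) held 14 pooled regions at 10 separate sites, 3.58 per 10 kb, with signals from 15 to 47.6. The strongest region of how, from 22049043 to 22049552, was intronic, 7107 bp after the TSS, and ranked 1939 in the pooled list, below the 1664 that are reproducible. Its signal was 11.2 in replicate 1 and 30.7 in replicate 2, a log2 difference of -1.46. Over all 8563 pooled regions with a summit in both replicates the median was -0.27 and the SD 0.77. A neighbouring region of 32.8 had 23.9 in replicate 2 and no summit within 200 bp in replicate 1. These neighbouring regions, the strongest of how, were thus higher in replicate 2. Over all 14 regions, 3 had a summit within 200 bp in both replicates, 5 in replicate 1 alone, 4 in replicate 2 alone and 2 in neither. Those 2 still overlapped a region of at least 1 replicate.

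Among the integrin genes, mew held the most peaks. Its gene, which runs from 13214409 to 13258490 on the minus strand of X, had 3 reproducible peaks among 16 pooled regions at 12 separate sites. The strongest (13251232 to 13251741) had a pooled signal of 109.3, with 57.6 in replicate 1 and 56.8 in replicate 2. It lay in an intron 5696 bp after the nearer of the 2 TSSs of mew and 2459 bp from an annotated TART-A transposable element insertion, which was not counted as a gene. The second peak (13232393 to 13232902) had 88.5 in the pool, 30.9 in replicate 1 and 40.2 in replicate 2. The weakest (13234027 to 13234536) had 57.6 in the pool, 28.5 in replicate 1 and 33.0 in replicate 2. All 3 showed replicate differences smaller than the SD of 0.88 over reproducible peaks, between -0.38 and 0.02 on the log2 scale.

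Where these mew peaks stand relative to start sites matters for their assignment. The peaks of 88.5 and 57.6 both lie in an intron of mew, 24535 and 22901 bp after its nearer TSS. Their nearest TSS is that of CG32639, a gene nested in mew, at 3918 and 2284 bp. Of the 16 pooled regions in the territory, 8 had CG32639 as the nearest gene, 3 mew itself, 3 REG, 1 comt and 1 CG15742. A further region of 39.0 (13234785 to 13235294) lay 1526 bp from CG32639 and had 12.4 in replicate 1 and 32.7 in replicate 2. With weaker regions of 25.6 and 22.6 beside them, these summits formed a group, seen on the territory map as neighbouring bars near 24 kb.

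The βPS gene mys (X, 8061645 to 8070237, plus strand) had the only peak of the set at a promoter of the gene itself. Its peak from 8061383 to 8061892 had a pooled signal of 71.0, with 37.1 in replicate 1 and 41.2 in replicate 2, a log2 difference of -0.15. The summit stood 7 bp upstream of the single annotated TSS. The divergent gene fs(1)h, which encodes a bromodomain protein of the BET family, starts 202 bp to the other side of the summit, so this peak lies in a promoter that both genes share. An overlapping region of 42.5 had its summit 193 bp after the TSS of mys, with 8.36 in replicate 1 and 9.14 in replicate 2. A weaker region of 22.5 lay in an intron and had 17.5 in replicate 2 alone.

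At if, the αPS2 gene (X, 16752189 to 16783434, minus strand), the reproducible peak was not at the gene's own start. It lay beyond the 3′ end of if (16751732 to 16752241), with a pooled signal of 69.3, 24.1 in replicate 1 and 45.4 in replicate 2. The log2 difference of -0.91 was the widest of the 6 peaks and slightly more than the SD of 0.88 over reproducible peaks. The summit was 77 bp upstream of the TSS of the neighbouring gene goe and 29087 bp from the nearest TSS of if. Near the starts of if itself 2 weaker regions had similar signals in the replicates: one of 41.4 in the pool had 25.5 in replicate 1 and 18.2 in replicate 2, and one of 40.9 had 24.4 and 22.8. Their summits were 250 and 149 bp from a TSS of if, and both ranked below the reproducible list, at 2523 and 2576. A region of 32.2 beyond the outermost start of if coincided with the TSS of mRpL22, a mitochondrial ribosomal protein gene, 3 bp away.

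**Figure D2:**
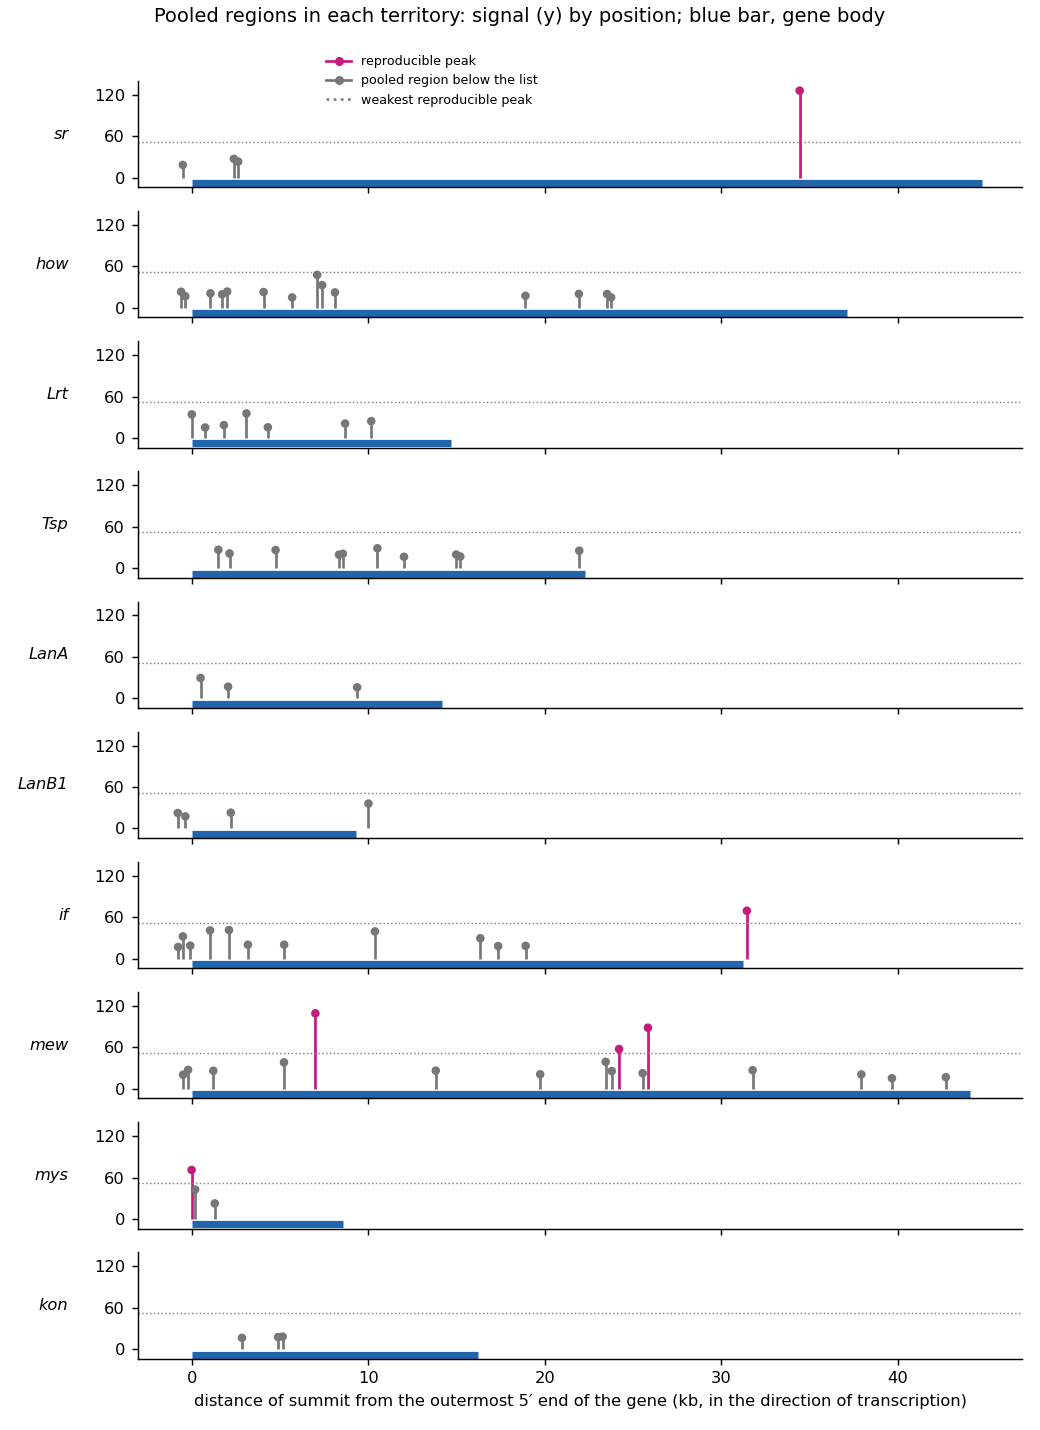
Summits of all 76 pooled regions in the 10 territories, plotted by distance from the outermost 5′ end of each gene in the direction of transcription (kb) with the pooled signal as bar height. Blue bars are gene bodies and pink bars the 6 reproducible peaks, of which 1 lies at the start of mys, 1 beyond the 3′ end of if and 4 inside introns of sr and mew.

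The matrix ligands of the integrins had weak regions only. Thrombospondin (Tsp), which tendon cells secrete and αPS2βPS binds, is encoded on 2L from 6686791 to 6709086. It had 10 pooled regions at 8 sites, with signals from 16.4 to 28.7. The strongest was intronic (6698315 to 6698824), with 10.8 in replicate 1 and 14.5 in replicate 2, and ranked 5066. Tsp thus had 4.12 regions per 10 kb, against 0.855 at sr, while its strongest signal was 28.7, against 126.0 at sr.

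The laminin chains LanA and LanB1, subunits of the basement membrane trimer, had fewer regions than Tsp, in shorter territories of 16.2 and 11.3 kb. Per 10 kb they had 1.85 and 3.53 pooled regions, against 4.12 at Tsp. LanA (3L, 6203831 to 6218022) had 3 pooled regions, the strongest of 29.5 in the intron 499 bp after its TSS, with 11.3 in replicate 1 and 12.9 in replicate 2. LanB1 (2L, 7811438 to 7820771) had 4, and its strongest, of 36.0, lay past the 3′ end (7821195 to 7821704). Its summit fell inside the annotated body of CG7115, 85 bp upstream of the nearest TSS of that gene. That region had 21.7 in replicate 1 and 10.5 in replicate 2, the largest excess of replicate 1 among the regions of the set seen in both. At the upstream end, a region of 22.4 lay 57 bp from the TSS of Cdc14, a phosphatase gene, and one of 17.4 lay 363 bp upstream of LanB1. Replicate 2 also held a region of 23.1 at the TSS of LanB1, from 7811192 to 7811791.

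The 2 remaining surface proteins had no reproducible peak. Lrt, a leucine-rich repeat protein of tendon cells, is on 2R from 20646360 to 20661070 and had 7 pooled regions. Its strongest, of 35.5, was intronic and had 7.92 in replicate 1 and 26.7 in replicate 2 (log2 difference -1.76). The next, of 34.1, had its summit 3 bp after the TSS of Lrt, with 32.9 in replicate 2 and no summit within 200 bp in replicate 1. The replicate 2 region at that TSS ranked 1496 in its list. The other gene, kon, which encodes a transmembrane proteoglycan at the tips of muscles (2L, 18487747 to 18503978), had 3 pooled regions of 18.2, 17.5 and 16.4. They matched summits of replicate 1 (9.01, 9.01 and 12.2) and none of replicate 2, and the first 2 matched the same one. Replicate 2 held 4 regions at kon at other places, the strongest of 18.3 in an intron (18497095 to 18497694), and none of the 4 had a pooled match. The strongest of the 6 regions of replicate 1, of 13.2, lay 92 bp upstream of the gene and had none either. A region stronger than that of kon was found in 52.2% of protein-coding genes, a share not matched for territory length.

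**Figure D3:**
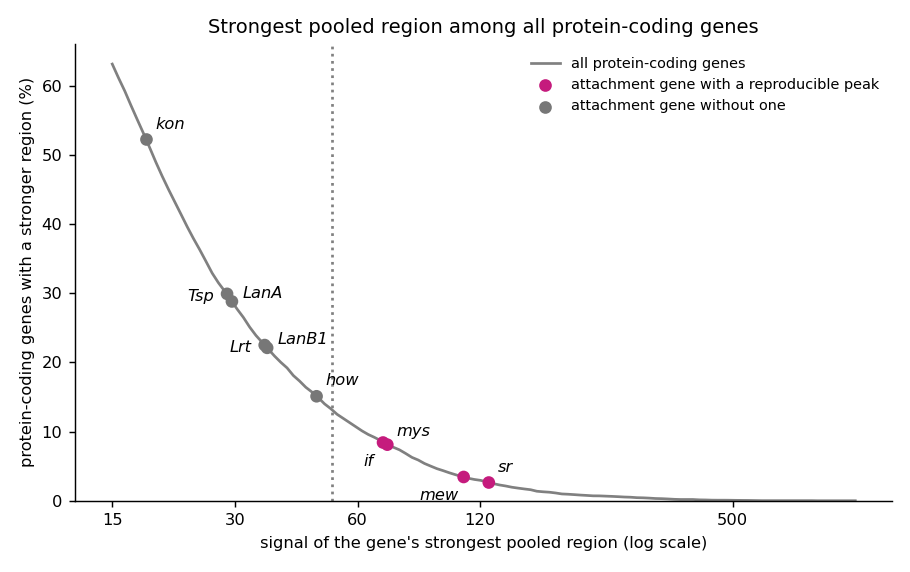
Share of all 13945 protein-coding genes (percent, curve) whose strongest pooled region exceeds a given signal (log axis), with the 10 attachment genes placed by their own strongest region. They run from sr, exceeded by 2.64% of genes, and mew, by 3.44%, to kon, exceeded by 52.2%, and the dotted line is the weakest reproducible peak. The shares are not matched for territory length.

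Ordered by the strongest pooled signal, the genes were sr (126.0), mew (109.3), mys (71.0), if (69.3), how (47.6), LanB1 (36.0), Lrt (35.5), LanA (29.5), Tsp (28.7) and kon (18.2). Each pair of neighbours in this order differed by less than 0.88 on the log2 scale, the SD of the difference between replicates at reproducible peaks. That SD is not the error of a pooled signal and gives only a rough scale, by which the order of close neighbours is loose. The median over the set was 41.8, against 27.1 over all protein-coding genes with a pooled region and 32.7 over those in the same range of territory length. Per 10 kb the median was 3.50 pooled regions for the set, against 1.96 for all protein-coding genes and 1.91 in the range of length. Taken singly, the replicates gave 4 of the 10 genes a region among the 1664 strongest of replicate 1, again sr, mew, mys and if, against 14.2% of protein-coding genes. Among the 1664 strongest of replicate 2 the count was 5, with Lrt added, against 11.8% of protein-coding genes. In the same range of territory length the share was 25.1% in each replicate.

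The 6 reproducible peaks were seen in both replicates, with summits within 200 bp, as were 95.6% of all reproducible peaks. Since the reproducible list is drawn from the pool of the same reads, this match is partly built in. Of the 76 pooled regions of the set, which form 60 separate sites once overlapping regions are merged, 38 (50%) had a summit in both replicates, against 40.1% of all 21376 pooled regions. A further 13 (17.1%) were matched in replicate 1 alone, against 22.1%, and 22 (28.9%) in replicate 2 alone, against 30.4%. The remaining 3 had no summit within 200 bp in either, though each overlapped a region of at least 1 replicate. At the 38 shared regions the median log2 difference was -0.30 with an SD of 0.68, and over all 8563 shared pooled regions it was -0.27 with an SD of 0.77.

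**Figure D4:**
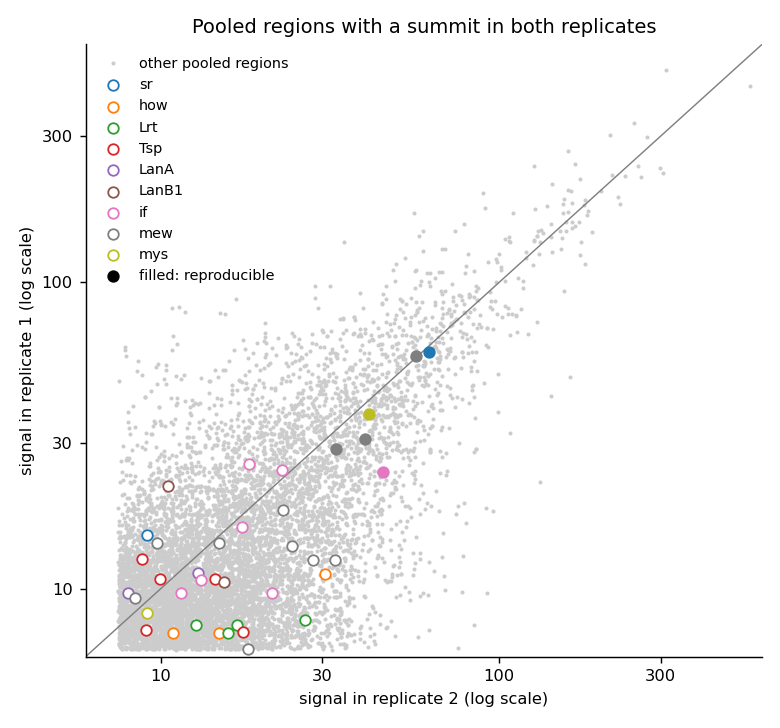
Signals in replicate 1 (vertical) and replicate 2 (horizontal), both on log axes, of the 8563 pooled regions with a summit in both, with the 38 of the attachment genes in colour and the diagonal marking equal signals. The peaks of sr and the strongest of mew lie on the diagonal, the peak of if and the regions of how and Lrt lie below it, and kon has none.

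Introns held 54 of the 76 pooled regions (71.1%), coding sequence 6, 5′ UTRs 3, and flanks upstream 11 and downstream 2. The nearest TSS was that of the gene itself for 49 regions (64.5%) and of another gene for the others. Territories are gene bodies plus 1000 bp to either side, so most of their length lies inside the gene. No such shares over other genes are given, so both describe these genes alone. Of the 6 reproducible peaks, 2 lay within 500 bp of a TSS, at mys and at goe beside if, whereas 56.6% of all reproducible peaks did. The nearest TSS belonged to the gene itself for 3 of the 6, at sr, at mys and at the strongest peak of mew. Counted by nearest TSS, then, 3 of the 10 genes had a reproducible peak and if had none. No share over all protein-coding genes is given under this rule, so the count describes these genes alone.

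Short sequence motifs, 6 in all, were looked for in a window of 150 bp to each side of every summit and on either strand, and each count describes only the letters in that window. The E-box CANNTG, bound by basic helix-loop-helix factors, was present at all 6 reproducible peaks, at 78.1% of all reproducible peaks and at 79.1% of windows displaced by 1000 bp. GAGAG, the word of the GAGA factor, was present at 2 of the 6, the first and second peaks of mew, against 38.6% of all reproducible peaks and 33.1% of displaced windows. GGTCACAC, a word of core promoters, was present at 1, in the mys and fs(1)h promoter printed above, against 3.19% and 1.20%. TATCGATA, the element of the factor DREF, was at none of the 6, against 4.51% of all reproducible peaks and 0.751% of displaced windows. TATCGATA occurred 2 times in the strongest LanB1 region, whose summit lies in the body of CG7115, and in 2.21% of all pooled regions. GTGGGCG, the core of the site of mammalian Egr factors, relatives of Stripe, and the Mef2 consensus were at none, against 3.06% and 13.6% of all reproducible peaks. The GC content within 50 bp of the 6 summits ran from 31.7% at the second mew peak to 46.5% at mys, and its median over all reproducible peaks was 37.6% (interquartile range 31.7 to 43.6%).

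A wider list of 37 genes of muscle attachment, chosen by function, was read in the same way. Reproducible peaks were found at 9 of them (24.3%), against 13.2% of all protein-coding genes and 24.4% of those with territories between 10.6 and 46.8 kb. Of the 37 genes 5 had 2 or more, as did 314 of all 13945 protein-coding genes. The median territory of this list was 10.2 kb, against 4.17 kb over all protein-coding genes, and neither share is matched to the lengths of this list. Both genes of the dystroglycan complex, a second link between muscle and matrix, had them. Dg (dystroglycan) had 128.5 at a peak 166 bp upstream of its TSS, with 70.0 in replicate 1 and 58.9 in replicate 2, a pooled signal slightly above that of sr. Dys (dystrophin), in a long territory of 138.2 kb, had 3 peaks of 104.9, 81.0 and 52.3, of which the second stood 144 bp upstream of a TSS.

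Of the 13 genes whose products sit on the inner side of integrins 5 had a reproducible peak, beside the 13.2% of all protein-coding genes. Pax (paxillin) had peaks of 92.8 and 85.7, the weaker one 143 bp upstream of the TSS of Alp12. The tensin gene by had 87.3 in its 3′ UTR and 56.3 at its promoter. The promoter peak had 36.8 in replicate 1 and no summit within 200 bp in replicate 2. Vinc (vinculin) had 65.2, with 20.3 in replicate 1 and 47.5 in replicate 2. The talin gene rhea had 55.8, with 28.7 and 29.4, and wech 53.3, with 20.7 and 26.6. Ilk and parvin had no pooled region, and stck, Fit1, Fit2, Zyx, Fak and ics had regions between 16.0 and 32.3.

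The 4 other integrin subunit genes had no reproducible peak, against a share of 13.2% with one over all protein-coding genes. The αPS3 gene scb had a strongest region of 46.8, with 25.3 in replicate 1 and 22.1 in replicate 2, and ItgaPS4, ItgaPS5 and Itgbn had no pooled region at all. Their territories, between 5.6 and 11.7 kb, were shorter than those of mew and if, while the 10.6 kb of mys lay within that range. Of 10 further matrix genes 1 had peaks: trol (perlecan), with 72.9 and 52.3, both in introns. LanB2, the γ chain of laminin, reached 49.0, vkg 39.6 and Tig 15.4. Of 8 tendon factors and receptors 1 had a peak: alien (CSN2), whose peak of 69.8 was nearest to the TSS of CG18661. The others, vn, Egfr, shot, tx, slow, drl and Grip, had strongest regions from 34.1 to 49.3, all below the weakest reproducible peak. Beside the 13.2% of all protein-coding genes, the counts in these groups are too small to set them apart.

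**Figure D5:**
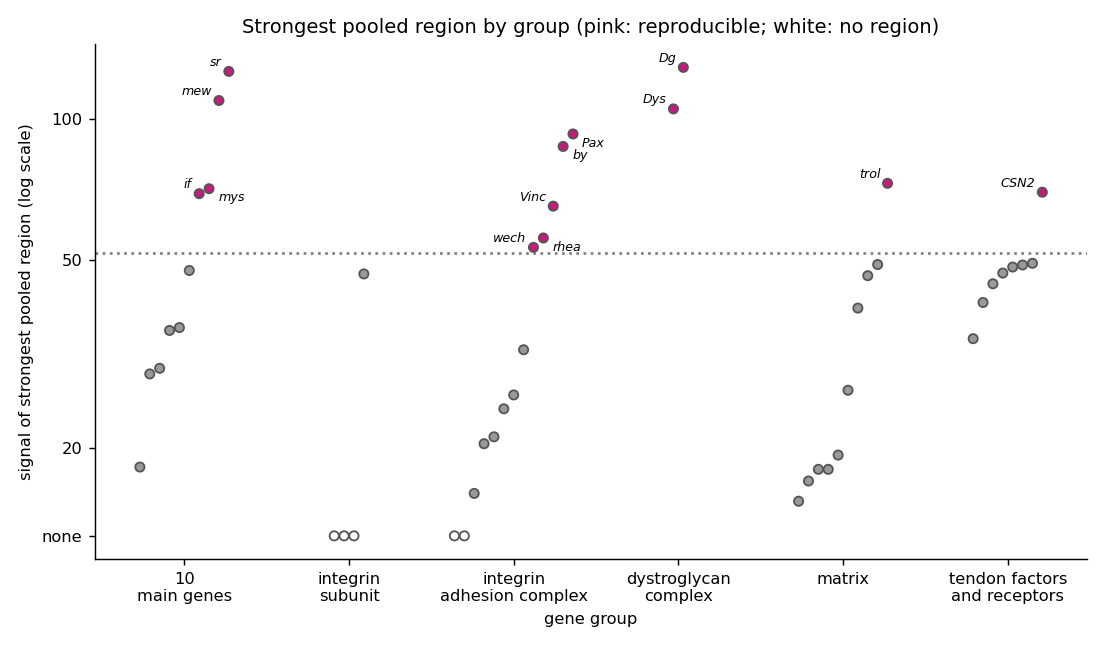
Strongest pooled region of each gene (log axis) for the 10 attachment genes at the left and for 5 groups of the wider list of 37 genes. Pink points have a reproducible peak, white points have no pooled region, and the dotted line is the weakest reproducible peak at 51.8. Dg at 128.5 and sr at 126.0 stand highest.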

How the data were processed

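Regions of ab-eGFP ChIP-seq from 2 biological replicates of whole embryos were used. The labels give sonicated fragments of 200 to 800 bp. The authors made a relaxed list for each replicate and for the pool from alignments and a control, and then an optimal list by irreproducible discovery rate (IDR), as recorded in the text files deposited beside the data. Which aligner, caller and thresholds were used is not given in the sources used here. Signal as deposited is the authors' score of each region, used only to rank and describe. The deposited −log10 q-values were capped at 3.38 for 1213 pooled regions and were not used to rank. Median widths were 384 bp in replicate 1, 600 bp in replicate 2 and 510 bp in the pool. The dm3 lists were not used here, since no dm3 annotation was at hand.

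Genes and TSSs came from Ensembl release 115 (BDGP6.54, dm6 coordinates), without transposable elements, on the 6 main chromosome arms, and coordinates of all 10 genes equal those of RefSeq. Summits are 1-based (column 2 plus column 10 plus 1). Replicates were matched to a region by the nearest summit within 200 bp, with Python 3.11.15 and pandas 2.3.3. Territory counts, matching, nearest TSSs and motif search were checked on simulated data. No significance test was run, as there is 1 group and the genes and lists were chosen with earlier results of these data known. Named genes are the 10 genes, the genes with the nearest TSS to their peaks and the members of the wider list with a peak; the others are named after their values were seen. CSN2 and dp were matched to alien and dpy through older names.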

Additional observations from a re-analysis of the deposited data

How the results depend on the processing

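Counts of genes depended on how a region was assigned. With peaks above the median signal, and also with the gene body alone, 2 of the 10 genes (sr and mew) had a reproducible peak in place of 4. Within 1 kb of their TSSs, 1 gene (mys) had one. Without replicate 1 or replicate 2, that is with the strongest regions of the other replicate alone, the count ran from 4 to 5. With 5 kb on either side it was 5, with Tsp added, with the nearest TSS 3, and with any overlap 4. Apart from the single replicates, no share over all protein-coding genes is given under these settings. Those counts therefore describe the 10 genes alone. The 6 peaks were matched in both replicates within 100 bp, by 50% reciprocal overlap and by any overlap, and 5 of them among the strongest 1664 regions of each replicate. With transposable elements counted as genes, a setting chosen after seeing the data, the nearest TSS belonged to the gene itself at 2 peaks in place of 3; with protein-coding TSSs alone it was 3. All 10 genes had a region in the pool below the reproducible list and in each replicate alone. No share over all protein-coding genes is given for these 3 counts. A pooled region of any strength was found in 63.4% of protein-coding genes and 91.6% of those in the length range, so these counts say little. CANNTG was at 5 of 6 peaks within 100 bp, and the counts of the other 5 motifs were the same. The dm3 lists were not run. Without read depth, a missing region cannot be told from a shallow library. No paired analysis was possible because the study has a single group.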

Other observations

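Of the 6 reproducible peaks, 5 lay on X, where mew, mys and if are found, against 18.5% of all 1664 reproducible peaks. Over all 2196 protein-coding genes on X, 278 (12.7%) had a reproducible peak, against 13.2% of protein-coding genes on all arms. The 3 genes of the set on X all had one, and 1 of the 7 on autosomes. This was noticed after the values were seen, and gene function and chromosome cannot be told apart in so few genes.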
